A study of Mus musculus with 27 samples.

Results

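The genes described here are 7 short mRNAs grouped as strongly cytoplasmic by their poly(A) RNA: Tmsb10, Tmsb4x, Fth1, Ftl1, Tpt1, Marcksl1 and Gpx2. They were picked by symbol around genes with very low chromatin-to-cytoplasm ratios in these same libraries, so the low ratio is a property of the choice and is described without a test. All 7 were found among the 37332 genes of the count table, and all 7 were among the 18226 genes that passed the filter on low counts. By counts, 6 of the 7 took a larger share of cytoplasmic than of chromatin RNA in every cell type. For Ftl1 in mESC the TPM went the other way, and Fth1 in mESC averaged 638 CPM (read counts scaled for depth) in nucleoplasm and 604 in cytoplasm. Gpx2 stood higher in cytoplasm than in chromatin in mESC and had at most 16 counts per library elsewhere.

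The study measured polyadenylated RNA of subcellular fractions along neuronal differentiation of the mouse. mESC are embryonic stem cells of the E14 line, which were kept with LIF on gelatin. mNPC are a line of neural progenitor cells that received EGF and FGF daily at 10.0 ng/ml in medium with B27 lacking vitamin A. mCtx are primary cortical neurons held for 5 days in culture on poly-L-lysine. Chromatin, soluble nucleoplasm and cytoplasm were separated in each, with 3 biological replicates per fraction, which gives 9 groups and 27 libraries. The 2 lines are each a single line, no group carries a treatment, and how the cell types differ in genotype, medium and origin cannot be told apart from differentiation. RNA longer than 200 nt was selected with oligo-dT before stranded sequencing.

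An mRNA is made on chromatin, is released into the nucleoplasm after splicing and polyadenylation, and is then exported to the cytoplasm, where it is translated and decays. Its share of each fraction's RNA therefore reflects synthesis, release, export and decay together. The members belong to several pathways. Thymosins bind actin monomers, ferritin chains form the cage that stores iron, Marcksl1 is a membrane and actin-binding protein of the MARCKS family, Tpt1 is a growth-associated protein whose mRNA begins with a 5′ terminal oligopyrimidine tract (TOP), and Gpx2 is a glutathione peroxidase best known from gut epithelium. Ferritin mRNAs carry an iron-responsive element (IRE), a hairpin in the 5′ leader that iron regulatory proteins bind to hold back translation when iron is low.

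The member genes span 1402 to 3433 bases from start to end, introns included, against a median of 19592.5 over all genes tested. Tmsb10 lies at chr6:72957347-72958748 on the minus strand, Tmsb4x at chrX:167207093-167209315 on the minus strand, Fth1 at chr19:9982703-9985092 on the plus strand and Ftl1 at chr7:45457944-45459884 on the minus strand. Tpt1 lies at chr14:75845093-75848525 on the plus strand, Marcksl1 at chr4:129513581-129515985 on the plus strand and Gpx2 at chr12:76792335-76795554 on the minus strand, all in mm10. Their principal GENCODE M21 transcripts run from 623 bases in Tmsb10 to 1605 in Marcksl1, against a median of 2874 over 15557 coding genes tested. The 2 thymosins each have a coding sequence of 132 bases for 44 amino acids, the ferritin heavy and light chains 546 and 549 bases, Tpt1 516, Gpx2 570 and Marcksl1 600, against a median of 1386. Marcksl1 and Gpx2 have 2 exons, Tmsb4x 3, Tmsb10, Fth1 and Ftl1 4 and Tpt1 6, against a median of 9. Short length is part of the description by which the genes were grouped, so these lengths are no finding.

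The first 150 bases of each principal transcript were searched on the sense strand for the loop of an IRE with its bulged C, written CNNNNNCAGTGN. The 2 ferritin transcripts held it, with the loop in capitals below, and so did Marcksl1, whose flanks differ from those of the ferritins.
Fth1 (transcript bases 87 to 116): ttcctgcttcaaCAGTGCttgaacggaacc
Ftl1 (transcript bases 78 to 107): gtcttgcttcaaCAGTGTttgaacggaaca
Marcksl1 (transcript bases 64 to 93): ggagcgcagcagCAGTGGgcgcagctagcg
The motif occurred in 5.6% of 15550 transcripts (871 of them), and its loop alone, CAGTGN, in 18% (2798). The 3 matches are a description of the letters only, and no pairing of the stem was computed.

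Some members have near-identical copies elsewhere in the genome, and this bears on their counts. Ftl1-ps1 (chr13:74406409-74407346, plus strand), annotated with a protein-coding transcript, matches the Ftl1 transcript at 906 of 910 aligned bases, with 2 differences in the coding part. The processed pseudogene Ftl2-ps (chr4:125504288-125504839, plus strand) matches at 545 of 552 bases, and 2 further copies, Ftl1-ps2 and Gm12164, are less alike. Of 869 windows of 100 bases along the Ftl1 transcript, 515 (59.3%) occur without a change in at least 1 copy, so reads from them cannot be placed by sequence. The copy Tpt1-ps3 (chr6:99877816-99878334, minus strand) matches Tpt1 at all 519 of its bases.

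Library totals ran from 10622897 to 24537526 counts. Levels below are in CPM, the read count scaled to a common library size by edgeR's TMM method, given for libraries 1, 2 and 3 in that order. A CPM is a share of the RNA recovered in that fraction and no amount per cell. In bulk samples such as these, fewer cells of a type and less RNA per cell cannot be told apart. All 8 markers of pluripotent cells were at or above 1 CPM in mESC, while Pou5f1, Zfp42, Fgf4 and Utf1 were at 0 in every group of mNPC and mCtx; all 8 progenitor markers reached 1 CPM in mNPC and all 10 cortical neuron markers in mCtx. Other classes were detected too. All 8 progenitor markers and 7 of 7 inhibitory neuron and 5 of 6 astrocyte markers also reached 1 CPM in each mCtx fraction, and 8 of 10 cortical neuron, 6 of 6 astrocyte and 5 of 6 oligodendrocyte lineage markers did so in each mNPC fraction. In each mESC fraction 5 of 8 progenitor, 3 of 6 astrocyte and 5 to 7 of 10 cortical neuron markers reached 1 CPM, and in mESC nucleoplasm 5 of 5 endothelium markers did. The progenitor markers summed to 1070 to 1215 CPM in mCtx nucleoplasm and the oligodendrocyte lineage markers to 1693 to 2041 in mNPC nucleoplasm. In mESC nucleoplasm the astrocyte markers summed to 485 to 657 CPM and the endothelium markers to 219 to 514. The part of these cells in the results was not tested. Mitochondrial genes took 3.84% to 11.7% of counts in the nucleoplasm libraries, 0.356% to 1.54% in chromatin and 0.0321% to 2.64% in cytoplasm.

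The members' combined share of all counts was lowest in chromatin and highest in cytoplasm in each cell type. Chromatin gave 0.0992% ± 0.0142 in mESC, 0.0616% ± 0.00941 in mNPC and 0.0928% ± 0.00631 in mCtx (SD, n = 3). Nucleoplasm gave 0.302% ± 0.00918, 0.325% ± 0.0395 and 0.377% ± 0.0237 for these cell types. Cytoplasm gave 0.403% ± 0.0368, 0.899% ± 0.0947 and 1.42% ± 0.115. The cytoplasm share was lowest in mESC and highest in mCtx, while the mean chromatin shares of these 2 cell types differed by less than the SD of mESC.

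**Figure D1:**
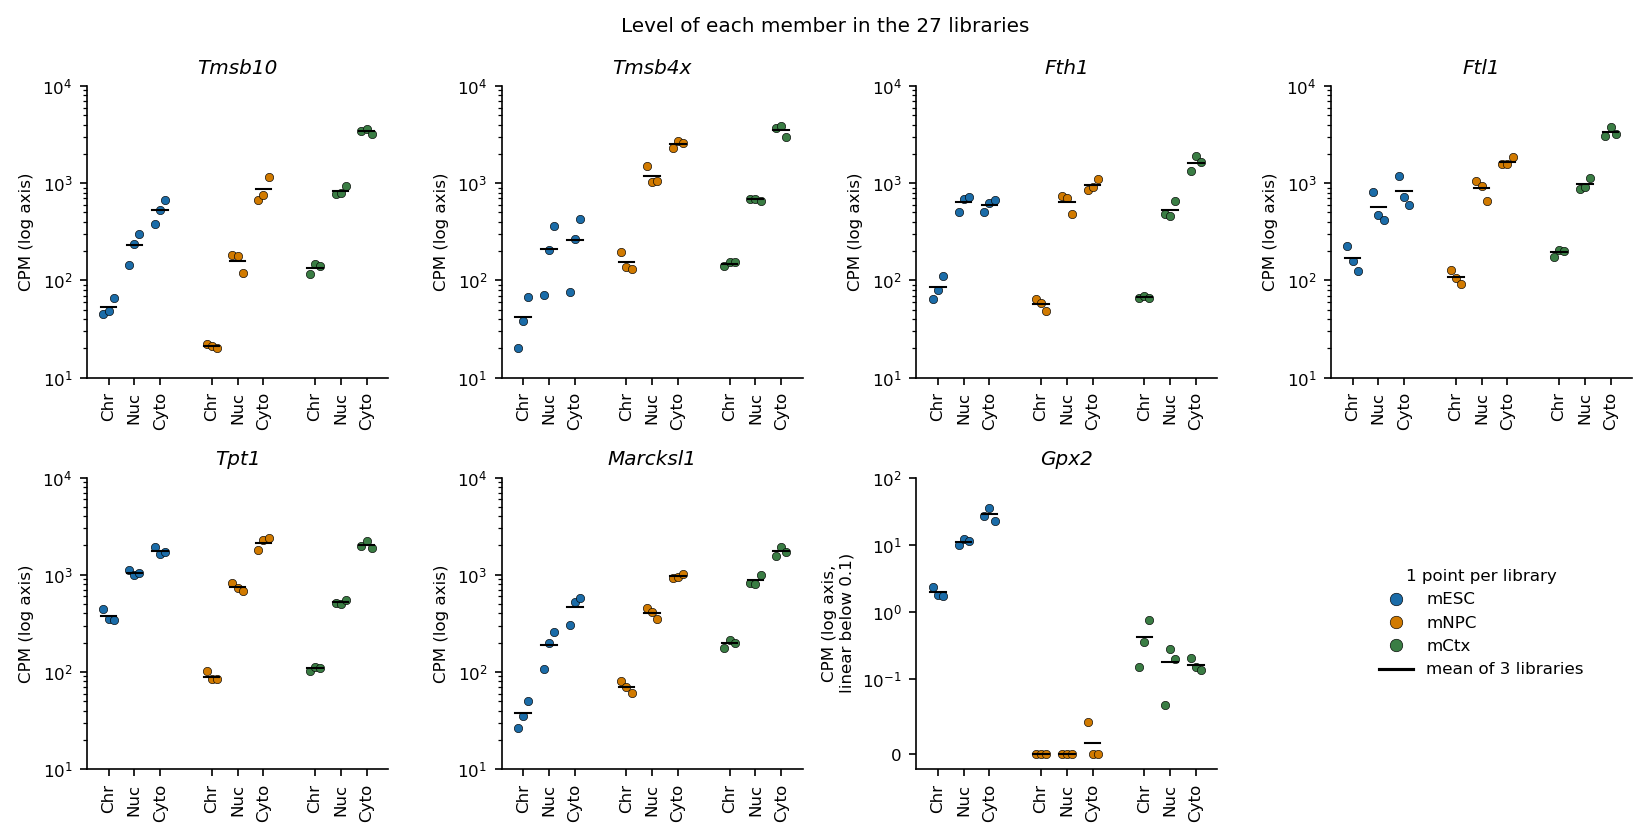
CPM of each member in the 9 groups on a log axis, with 1 point per library and a bar at the mean (the Gpx2 panel is linear below 0.1 so that libraries at 0 can be drawn). The cytoplasm libraries sit above the chromatin libraries of the same cell type for 6 members, and Gpx2 is above 1 CPM only in mESC.

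Tmsb10, thymosin beta 10, was highest in the mCtx cytoplasm and lowest in the mNPC chromatin. In mESC the libraries gave 45.0, 48.0 and 65.7 CPM in chromatin, 144, 239 and 303 in nucleoplasm and 385, 529 and 664 in cytoplasm. In mNPC they gave 21.9, 21.4 and 20.2 CPM in chromatin, 183, 177 and 118 in nucleoplasm and 679, 760.2 and 1149 in cytoplasm. In mCtx they gave 117, 148 and 141 CPM in chromatin, 773, 802 and 926 in nucleoplasm and 3453, 3587 and 3209 in cytoplasm. The cytoplasm libraries were the highest of each cell type without overlap, and the mCtx cytoplasm stood above all other groups. From the highest mean down, the order was mCtx cytoplasm (3416 ± 192 CPM, SD, n = 3), mNPC cytoplasm, mCtx nucleoplasm, mESC cytoplasm, mESC nucleoplasm, mNPC nucleoplasm, mCtx chromatin, mESC chromatin and mNPC chromatin (21.2 ± 0.905 CPM). Libraries of neighbours overlapped between mNPC cytoplasm and mCtx nucleoplasm and along the run from mESC nucleoplasm to mCtx chromatin. The log2 fold change of chromatin over cytoplasm, with its SE, was -3.31 ± 0.25 in mESC, -5.35 ± 0.28 in mNPC and -4.66 ± 0.27 in mCtx, so the cytoplasm was 9.95, 40.7 and 25.3 times chromatin. For nucleoplasm over cytoplasm the values were -1.20 ± 0.23, -2.44 ± 0.24 and -2.03 ± 0.24 in the same order of cell types.

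Cell types were compared within a fraction by edgeR's quasi-likelihood F-test with Benjamini-Hochberg adjustment over all 18226 genes, and a gene was called at an adjusted p under 0.05 with a log2 fold change of at least 1 in size. The nucleoplasm libraries took no part in the ratios by which the members were picked. The cytoplasm and chromatin libraries did, so p-values and calls in those 2 fractions are not independent of the choice. For every member they are given as a description. The contrasts share groups with one another. In nucleoplasm, 3 of 7 members were called between mNPC and mESC, 3 between mCtx and mNPC and 5 between mCtx and mESC, where 57.4%, 46.7% and 63.0% of all genes were called in either direction. In cytoplasm 3, 3 and 6 members were called against 59.4%, 44.4% and 67.9% of all genes, and in chromatin 4, 3 and 5 against 57.2%, 44.8% and 61.5%. By direction, mCtx against mESC had 28.9% of all genes higher and 34.1% lower in nucleoplasm, and 35.7% and 32.2% in cytoplasm. Each of these counts of members includes Gpx2, which passed the filter on low counts through its mESC libraries and so had to differ between mESC and the other cells. Between mCtx and mNPC the calls of Gpx2 rest on few reads, 9 against 0 in nucleoplasm, 9 against 1 in cytoplasm and 26 against 0 in chromatin. Without Gpx2 the members called were 2, 2 and 4 of 6 in nucleoplasm, 2, 2 and 5 in cytoplasm and 3, 2 and 4 in chromatin. With so few members these counts are close to the background, and the results that follow are those of single genes.

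Tmsb10 was higher in mCtx than in both other cell types in every fraction. Compared with mNPC, nucleoplasm gave 2.39 ± 0.24, adjusted p = 1.84e-09, cytoplasm 1.99 ± 0.24, adjusted p = 4.16e-08, and chromatin 2.67 ± 0.25, adjusted p = 4.10e-10, as log2 fold changes with their SE. Compared with mESC, nucleoplasm gave 1.87 ± 0.24, adjusted p = 7.38e-08, cytoplasm 2.70 ± 0.25, adjusted p = 1.07e-10, and chromatin 1.35 ± 0.24, adjusted p = 1.05e-05. Between mNPC and mESC the direction of the values was not the same in all fractions. In mNPC chromatin Tmsb10 was lower (-1.32 ± 0.24), given as a description since the members were picked around low chromatin-to-cytoplasm ratios. It was not called in cytoplasm (0.71 ± 0.23, adjusted p = 0.00717) and gave -0.52 ± 0.23 in nucleoplasm, adjusted p = 0.0442. By TPM the chromatin value for Tmsb10 was -0.91, short of the fold needed for a call.

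Tmsb4x, the X-linked thymosin beta 4, encodes a protein of the same length, and its transcript matches that of Tmsb10 at 75.2% of 117 aligned bases. In mESC the libraries gave 20.2, 38.7 and 67.4 CPM in chromatin, 70.5, 208 and 359 in nucleoplasm and 75.8, 269 and 432 in cytoplasm. In mNPC they gave 197, 137 and 131 CPM in chromatin, 1490.1, 1030.5 and 1046 in nucleoplasm and 2298, 2714 and 2615 in cytoplasm. In mCtx they gave 139, 153 and 154 CPM in chromatin, 690.0, 696 and 664 in nucleoplasm and 3742, 3873 and 2984 in cytoplasm. Library 1 was the lowest of the mESC libraries in all 3 fractions, as it was for Tmsb10, Fth1 and Marcksl1, and the mESC groups spread far more than those of the other cells. The mESC nucleoplasm and cytoplasm ranges overlapped, while in mNPC and mCtx the 3 fractions were apart. Libraries of one number deviated together across the mESC fractions, and within a number Tmsb4x gave a log2 ratio of nucleoplasm over cytoplasm of -0.10, -0.37 and -0.27, below 0 in all 3. The order ran from mCtx cytoplasm (3533 ± 480.2 CPM) over mNPC cytoplasm, mNPC nucleoplasm and mCtx nucleoplasm to the mESC cytoplasm and nucleoplasm, mNPC chromatin, mCtx chromatin and mESC chromatin (42.1 ± 23.8 CPM). Neighbours overlapped from mESC cytoplasm through to mCtx chromatin.

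Chromatin over cytoplasm for Tmsb4x was -2.62 ± 0.47 in mESC, -4.03 ± 0.50 in mNPC and -4.57 ± 0.51 in mCtx (log2 fold change and SE), and nucleoplasm over cytoplasm was -0.29 ± 0.44, -1.10 ± 0.45 and -2.37 ± 0.46. With the replicate number as a block, the mESC value of nucleoplasm over cytoplasm for Tmsb4x was -0.26 ± 0.15. In nucleoplasm Tmsb4x rose from mESC to mNPC (2.48 ± 0.47, adjusted p = 3.06e-05) and was higher in mCtx than in mESC (1.69 ± 0.45, adjusted p = 0.00147). Without all mESC libraries numbered 1, the nucleoplasm values for Tmsb4x were 2.25 and 1.28, and both stayed called. In cytoplasm the 2 differences were 3.29 ± 0.48, adjusted p = 7.67e-07, and 3.77 ± 0.49, adjusted p = 9.48e-08. In chromatin they were 1.88 ± 0.46, adjusted p = 0.000637, and 1.82 ± 0.46, adjusted p = 0.000816. Between mCtx and mNPC Tmsb4x was not called in any fraction, with -0.80 ± 0.44, adjusted p = 0.115 in nucleoplasm, 0.47 ± 0.44, adjusted p = 0.359 in cytoplasm and -0.06 ± 0.44, adjusted p = 0.930 in chromatin. Thymosin beta 4 is also abundant in microglia. Of 10 microglia markers, 6 were at or above 1 CPM in mCtx nucleoplasm and in mCtx cytoplasm and 2 in mCtx chromatin, against 1 in each mNPC fraction and 1 or 2 in mESC. Their summed level was 47.7 to 53.8 CPM in mCtx nucleoplasm and 64.9 to 77.2 in mCtx cytoplasm, against 22.8 to 24.3 and 28.4 to 32.6 in mNPC and 36.5 to 50.5 and 60.4 to 107 in mESC. C1qa, C1qb and C1qc were at 0 in all mNPC fractions and in mESC cytoplasm, and no microglia marker was at 0 in mCtx. Their part in the results for Tmsb4x, Fth1 and Ftl1 in mCtx was not tested.

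**Figure D2:**
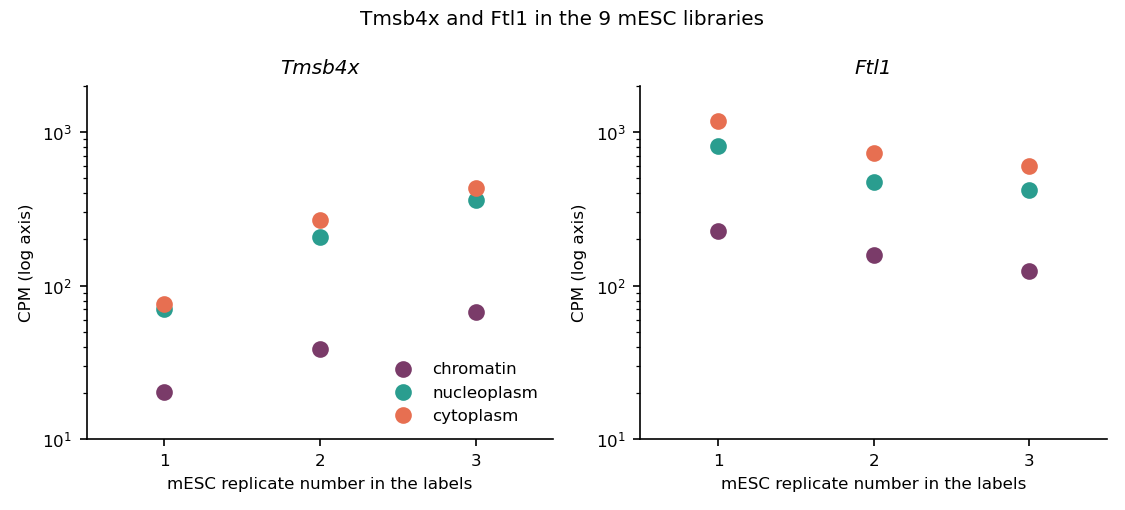
CPM of Tmsb4x (left) and Ftl1 (right) in the 9 mESC libraries on a log axis, by replicate number, with 1 colour per fraction. Tmsb4x is lowest and Ftl1 highest in the libraries numbered 1 of all 3 fractions.

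Fth1, the ferritin heavy chain with the ferroxidase centre, stood highest in the mCtx cytoplasm. In mESC the libraries gave 65.0, 79.1 and 109.9 CPM in chromatin, 508, 685 and 720.3 in nucleoplasm and 503, 630.2 and 679 in cytoplasm. In mNPC they gave 64.5, 58.4 and 48.9 CPM in chromatin, 743, 710.5 and 478 in nucleoplasm and 851, 909 and 1114 in cytoplasm. In mCtx they gave 66.2, 69.7 and 66.6 CPM in chromatin, 479, 461 and 651 in nucleoplasm and 1329, 1887 and 1649.9 in cytoplasm. Chromatin was lowest in each cell type without overlap, and in mESC the nucleoplasm and cytoplasm libraries overlapped. The order was mCtx cytoplasm (1622 ± 279.9 CPM), mNPC cytoplasm, mNPC nucleoplasm, mESC nucleoplasm, mESC cytoplasm, mCtx nucleoplasm, mESC chromatin, mCtx chromatin and mNPC chromatin (57.3 ± 7.84 CPM). Neighbours overlapped from mNPC nucleoplasm to mCtx nucleoplasm and between mESC and mCtx chromatin. Chromatin over cytoplasm was -2.83 ± 0.21 in mESC, -4.06 ± 0.23 in mNPC and -4.59 ± 0.23 in mCtx, and nucleoplasm over cytoplasm was 0.08 ± 0.20, -0.57 ± 0.20 and -1.61 ± 0.20. The mESC value of nucleoplasm over cytoplasm for Fth1 lies at 0 within its SE, and within a number the log2 ratios were 0.02, 0.12 and 0.09.

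Fth1 was called in 1 of the 9 comparisons of cell types, the cytoplasm of mCtx against mESC (1.42 ± 0.20, adjusted p = 4.11e-07). The steps on the way were 0.67 ± 0.20, adjusted p = 0.00404 from mESC to mNPC and 0.76 ± 0.20, adjusted p = 0.00164 from mNPC to mCtx, both past the adjusted p and short of the fold. In nucleoplasm Fth1 gave 0.01 ± 0.20, adjusted p = 0.960 for mNPC against mESC, -0.28 ± 0.20, adjusted p = 0.225 for mCtx against mNPC and -0.27 ± 0.20, adjusted p = 0.220 for mCtx against mESC. The first of these turned to -0.35 with library totals alone and to -0.36 on log2(TPM + 1), and the second to 0.02 on log2(TPM + 1), so no direction is given for Fth1 in nucleoplasm. In chromatin it gave -0.56 ± 0.20, adjusted p = 0.0139, 0.24 ± 0.20, adjusted p = 0.312, and -0.33 ± 0.20, adjusted p = 0.138 in the same order.

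Ftl1, the ferritin light chain, which aids iron core formation, differed between the 2 deposited tables in mESC. By counts the libraries gave 228, 158 and 124 CPM in chromatin, 813, 473 and 419.8 in nucleoplasm and 1188, 729.7 and 600.4 in cytoplasm. In mNPC they gave 129, 107 and 92.3 CPM in chromatin, 1065, 925 and 661 in nucleoplasm and 1562, 1585 and 1854 in cytoplasm. In mCtx they gave 174, 206 and 203 CPM in chromatin, 881, 918 and 1138 in nucleoplasm and 3083, 3766 and 3193 in cytoplasm. In the counts the cytoplasm was highest and chromatin lowest in each cell type, the mESC nucleoplasm and cytoplasm ranges overlapped, and library 1 was the highest of the mESC libraries in all 3 fractions. Within a number, Ftl1 gave a log2 ratio of nucleoplasm over cytoplasm of -0.55, -0.63 and -0.52 in mESC, so the overlap of the ranges came with a difference of one sign in all 3 pairs. The order was mCtx cytoplasm (3348 ± 367 CPM), mNPC cytoplasm, mCtx nucleoplasm, mNPC nucleoplasm, mESC cytoplasm and nucleoplasm, mCtx chromatin, mESC chromatin and mNPC chromatin (109 ± 18.3 CPM), with overlap from mCtx nucleoplasm to mESC nucleoplasm and among the chromatin groups. Chromatin over cytoplasm was -2.31 ± 0.26 in mESC, -3.93 ± 0.28 in mNPC and -4.11 ± 0.28 in mCtx, and nucleoplasm over cytoplasm was -0.56 ± 0.25, -0.92 ± 0.25 and -1.77 ± 0.25. With the replicate number as a block, the mESC value of nucleoplasm over cytoplasm for Ftl1 was -0.56 ± 0.13.

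In TPM, an abundance scaled by transcript length and library, Ftl1 in mESC stood at 121, 128 and 92.9 TPM in chromatin, 45.5, 35.2 and 23.8 in nucleoplasm and 10.3, 8.60 and 7.06 in cytoplasm. The order of the fractions was thus the reverse of that in the counts, with a log2 ratio of mean TPM of 3.72 for chromatin over cytoplasm. The copies held most of the family's TPM in mESC. Ftl1-ps1 averaged 929.7, 2225 and 3153 TPM in the 3 fractions. Ftl2-ps averaged 568, 1323 and 1911 TPM. Ftl1 itself took 7.25%, 0.942% and 0.172% of the TPM summed over the 5 genes, against 65.4%, 60.9% and 57.2% of the summed counts. In the counts, Ftl2-ps held nearly all of the copies' share, with a mean of 9524 counts in mESC cytoplasm, and Ftl1-ps1 had 42.0. In mNPC and mCtx, Ftl1 took at least 99.6% of the family in both tables by group mean, and Ftl2-ps had 0 to 7 counts per library.

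Over the 5 genes together the 2 tables gave the same order of fractions in mESC. Summed counts gave a log2 fold change of -2.50 for chromatin over cytoplasm and -0.75 for nucleoplasm over cytoplasm of Ftl1 with its copies, and summed TPM gave -1.64 and -0.49. The comparison with mESC depended on the copies. By its own counts Ftl1 was higher in mCtx cytoplasm than in mESC cytoplasm (2.00 ± 0.26, adjusted p = 7.15e-08) and was not called in mNPC cytoplasm against mESC (0.99 ± 0.25, adjusted p = 0.000854). With the copies summed, the counts gave 1.13, adjusted p = 0.000394, for mCtx against mESC and 0.12 for mNPC against mESC, while summed TPM gave 0.12 and -0.87 for Ftl1. In nucleoplasm Ftl1 alone gave 0.64 ± 0.25, adjusted p = 0.0228 for mNPC and 0.78 ± 0.25, adjusted p = 0.00572 for mCtx against mESC, and summed TPM turned both, to -1.58 and -1.11. Without mESC library 1 of the same fraction, Ftl1 alone was called in all 3 of these comparisons that had not been, at 1.31 in cytoplasm and 1.17 and 1.14 in nucleoplasm. The call in mNPC cytoplasm was also made without mNPC library 1 or 2, where Ftl1 gave 1.03 and 1.02. In chromatin the values were -0.63 ± 0.25, adjusted p = 0.0236 and 0.20 ± 0.25, adjusted p = 0.472, and -1.44 and -0.53 with summed counts. So a level of Ftl1 in mESC, relative to the other cell types, is not given a direction here.

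**Figure D3:**
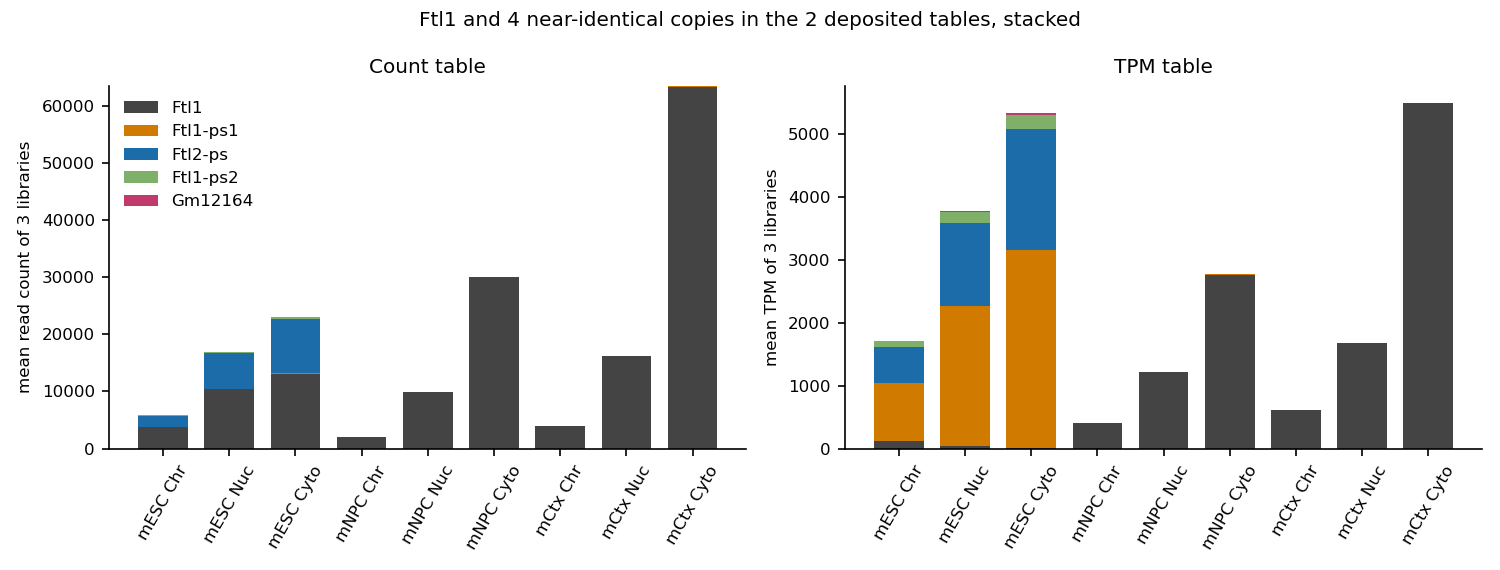
Stacked bars of Ftl1 and its 4 copies in the 9 groups, as mean read count of 3 libraries, not scaled to depth (left), and as mean TPM (right). In mESC the bars of the count table are Ftl1 and Ftl2-ps, those of the TPM table are mostly Ftl1-ps1 and Ftl2-ps, and in mNPC and mCtx both tables show nearly Ftl1 alone.

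Between mCtx and mNPC, where the copies had few counts, Ftl1 rose in cytoplasm (1.01 ± 0.25, adjusted p = 0.000934). This call sat at the fold threshold and was lost at 0.89 to 0.99 under several alternatives for Ftl1, with its direction kept, among them leaving out mCtx library 2 (0.92) or mNPC library 1 or 2 (0.97 and 0.97). In nucleoplasm the difference was 0.15 ± 0.25, adjusted p = 0.626 and in chromatin 0.83 ± 0.25, adjusted p = 0.00496.

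Marcksl1, which binds membranes, calmodulin and actin and is prominent in the developing brain, was lowest in mESC and highest in mCtx in each fraction. In mESC the libraries gave 26.5, 35.0 and 50.8 CPM in chromatin, 108, 197 and 256 in nucleoplasm and 301, 522 and 575 in cytoplasm. In mNPC they gave 81.3, 69.3 and 60.7 CPM in chromatin, 454, 412 and 351 in nucleoplasm and 933, 954 and 1006 in cytoplasm. In mCtx they gave 177, 211 and 201 CPM in chromatin, 824, 812 and 983 in nucleoplasm and 1571, 1908 and 1724 in cytoplasm. Within each fraction the libraries of the 3 cell types did not overlap, and within each cell type the fractions did not overlap either. The order was mCtx cytoplasm (1735 ± 169 CPM), mNPC cytoplasm, mCtx nucleoplasm, mESC cytoplasm, mNPC nucleoplasm, mCtx chromatin, mESC nucleoplasm, mNPC chromatin and mESC chromatin (37.4 ± 12.3 CPM). Overlap of neighbours was seen between mNPC cytoplasm and mCtx nucleoplasm, between mESC cytoplasm and mNPC nucleoplasm, and between mCtx chromatin and mESC nucleoplasm. Chromatin over cytoplasm was -3.64 ± 0.27 in mESC, -3.77 ± 0.27 in mNPC and -3.14 ± 0.26 in mCtx, and nucleoplasm over cytoplasm was -1.32 ± 0.25, -1.25 ± 0.24 and -0.99 ± 0.24.

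Marcksl1 was higher in mCtx than in mESC in nucleoplasm (2.22 ± 0.25, adjusted p = 9.31e-09), cytoplasm (1.90 ± 0.25, adjusted p = 1.07e-07) and chromatin (2.39 ± 0.26, adjusted p = 3.36e-09). In nucleoplasm both steps were called, at 1.12 ± 0.24, adjusted p = 0.000209 from mESC to mNPC and 1.10 ± 0.24, adjusted p = 0.000270 from mNPC to mCtx. The first fell to 0.77 with library totals alone, and the second to between 0.82 and 0.98 when any 1 of the mCtx libraries or mNPC library 2 or 3 was left out, which ends the call of Marcksl1 and keeps the direction. In cytoplasm mNPC stood above mESC (1.05 ± 0.24, adjusted p = 0.000371), a call that ended at 0.80 without mESC cytoplasm library 1, and mCtx against mNPC gave 0.85 ± 0.24, adjusted p = 0.00338. In chromatin the second step was called (1.48 ± 0.25, adjusted p = 8.51e-06) and the first was not (0.91 ± 0.25, adjusted p = 0.00170), though Marcksl1 was called at 1.20 without mESC chromatin library 3 and at 1.01 without mNPC chromatin library 3.

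Tpt1, the translationally controlled tumour protein, stood highest in mESC in both nuclear fractions and was not called between cell types in cytoplasm. In mESC the libraries gave 446, 348 and 345 CPM in chromatin, 1123, 999 and 1035 in nucleoplasm and 1941, 1615 and 1720.5 in cytoplasm. In mNPC they gave 101, 84.0 and 83.8 CPM in chromatin, 815, 731 and 677 in nucleoplasm and 1805, 2254 and 2374 in cytoplasm. In mCtx they gave 103, 114 and 110.3 CPM in chromatin, 514, 498 and 552 in nucleoplasm and 1982, 2236 and 1872 in cytoplasm. The cytoplasm libraries of the 3 cell types overlapped in part, while the nucleoplasm libraries fell into 3 separate ranges with mESC highest, and the mESC chromatin libraries stood above those of both other cells. The order was mNPC cytoplasm (2144 ± 299.9 CPM), mCtx cytoplasm, mESC cytoplasm, mESC nucleoplasm, mNPC nucleoplasm, mCtx nucleoplasm, mESC chromatin, mCtx chromatin and mNPC chromatin (89.8 ± 10.1 CPM), with overlap only among the 3 cytoplasm groups. Chromatin over cytoplasm was -2.21 ± 0.14 in mESC, -4.58 ± 0.16 in mNPC and -4.22 ± 0.16 in mCtx, and nucleoplasm over cytoplasm was -0.74 ± 0.14, -1.53 ± 0.14 and -1.96 ± 0.14.

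In chromatin the log2 fold change of Tpt1 was -2.08 ± 0.14 for mNPC against mESC and -1.80 ± 0.14 for mCtx against mESC, given as a description since the chromatin libraries entered the choice of the members. In nucleoplasm it was lower in mCtx than in mESC (-1.01 ± 0.14, adjusted p = 2.12e-07), a call at the fold threshold that was lost for Tpt1 at -0.92 with no filter, at -0.95 without mitochondrial genes, just short of the threshold with DESeq2 and RLE size factors, and without mESC library 1 (-0.95) or mCtx library 2 (-0.99). The nucleoplasm steps were -0.51 ± 0.14, adjusted p = 0.00166 and -0.51 ± 0.14, adjusted p = 0.00194. In cytoplasm no comparison of Tpt1 was called, with 0.29 ± 0.14, adjusted p = 0.0596 for mNPC against mESC, -0.08 ± 0.14, adjusted p = 0.642 for mCtx against mNPC and 0.21 ± 0.14, adjusted p = 0.162 for mCtx against mESC. The identical copy Tpt1-ps3 took reads of the family in both tables. Tpt1 held 96.4% to 98.2% of the counts of the 2 genes and 59.2% to 83.0% of their TPM, by group mean.

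Gpx2, which reduces peroxides with glutathione, had nearly all of its counts in mESC. Its counts in mESC were 49, 44 and 39 in chromatin, 182, 231 and 203 in nucleoplasm and 360, 634 and 389 in cytoplasm. In mNPC the 9 libraries held 1 count in all, in a cytoplasm library. In mCtx the counts were 3, 7 and 16 in chromatin, 1, 4 and 4 in nucleoplasm and 3, 3 and 3 in cytoplasm. Every mESC library was above every library of the other cell types. The cytoplasm of mESC averaged 28.3 ± 6.75 CPM, the nucleoplasm 11.2 ± 1.22 and chromatin 1.97 ± 0.357, and the fractions did not overlap. Chromatin over cytoplasm in mESC was -3.84 ± 0.31 on the log2 scale and nucleoplasm over cytoplasm -1.34 ± 0.27.

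In mCtx Gpx2 had few counts in any fraction. Chromatin had 26 counts against 9 in cytoplasm, a ratio of CPM of 2.72 (95% interval 1.24 to 6.60, for counting error only), and nucleoplasm had 9. Of the 26, 16 came from library 3, and without it the ratio was 1.60 (0.586 to 4.46). Within a number the log2 ratio of chromatin over cytoplasm for Gpx2 was -0.41, 1.24 and 2.49, so library 1 went the other way and no direction is given. In mNPC both fractions compared were at or under the limit of 3 counts, so no ratio is given. Between cell types Gpx2 is given by its counts and not by calls, for the reasons given above. Bounds against a group at 0 set it to the 3 counts it allows and take the counts of the higher group as exact. By these bounds mESC was at least 122-fold higher than mNPC in nucleoplasm and at least 36.6-fold higher in chromatin. In cytoplasm mESC had 1383 counts and mNPC 1, a ratio of 1564 that rests on that 1 count (280.3 to 61825). Against mCtx, mESC was 60.7-fold higher in nucleoplasm (31.8 to 133), 179-fold in cytoplasm (94.0 to 392) and 4.51-fold in chromatin (2.95 to 7.16), or 7.66-fold (4.03 to 16.3) without mCtx chromatin library 3. Over mNPC, mCtx was at least 8.11-fold higher in chromatin, or at least 4.78-fold without mCtx chromatin library 3. In nucleoplasm 9 counts stood against 0, at least 2.01-fold, or at least 1.18-fold without mNPC nucleoplasm library 1. Both bounds leave out the counting error of the 9 counts, so they do not show how surely the ratio lies above 1. In cytoplasm 9 counts stood against 1, a ratio of 8.74 (1.21 to 383). That interval reached below 1 without mNPC cytoplasm library 2 (0.810 to 256) or 3 (0.914 to 289) or mCtx cytoplasm library 1 (0.955 to 362). On log2(TPM + 1) the differences of Gpx2 between mCtx and mNPC were 0.37 in chromatin, 0.27 in nucleoplasm and 0.12 in cytoplasm.

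Per length, the members differed widely in level. In the mCtx cytoplasm the mean TPM was 11376 ± 355 for Tmsb10, 7033 ± 842 for Tmsb4x, 5486 ± 403 for Ftl1, 2998 ± 329.9 for Tpt1, 2758 ± 389 for Fth1 and 1481 ± 77.5 for Marcksl1 (SD, n = 3). In the mESC cytoplasm the place of Ftl1 depended on its copies, so the order is given for the other members: Tpt1 at 2583 ± 447 TPM and Tmsb10 at 1769 ± 347, followed by Fth1 at 1012 ± 78.8, Tmsb4x at 494 ± 321, Marcksl1 at 372 ± 91.8 and Gpx2 at 32.5 ± 7.47. Ftl1 stood at 8.64 ± 1.61 TPM there by itself and at 5330 ± 2213 TPM with its 4 copies, which would place it last or first. The 2 thymosins headed the order in mCtx cytoplasm.

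**Figure D4:**
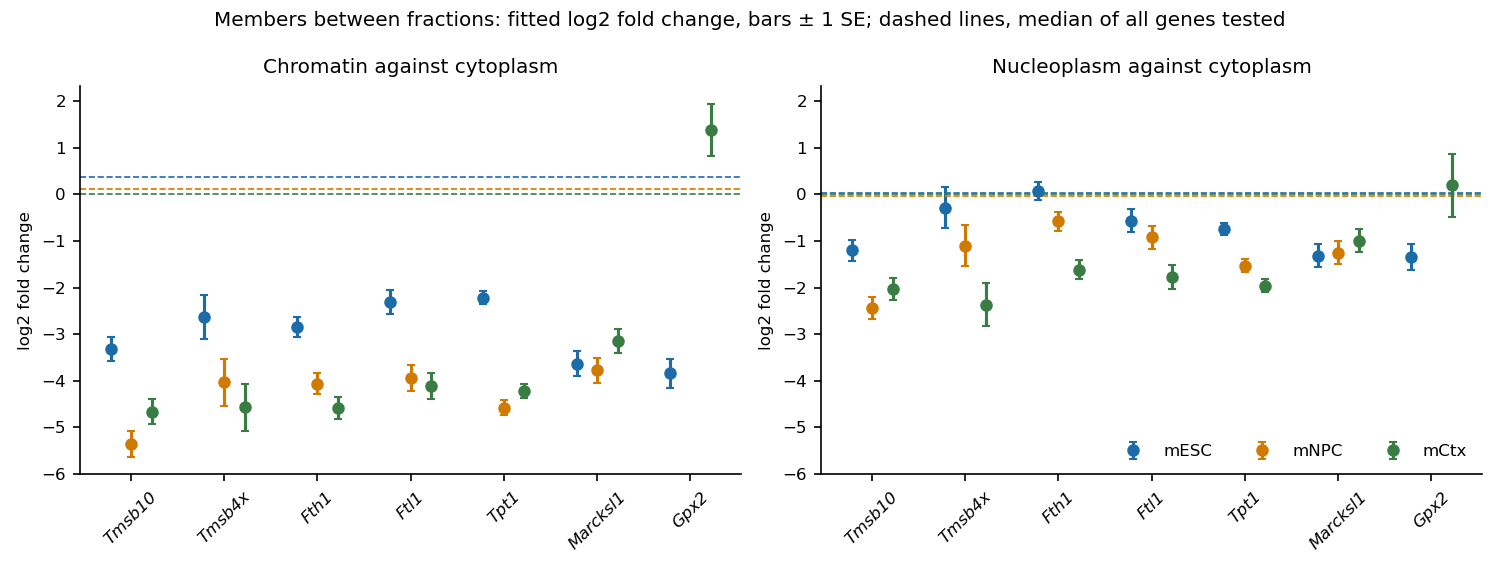
Fitted log2 fold change of chromatin over cytoplasm and of nucleoplasm over cytoplasm for each member in mESC, mNPC and mCtx, with bars of 1 SE and a dashed line at the median of all genes for each cell type; Gpx2 in mNPC is not drawn. All drawn chromatin values lie below 0 except Gpx2 in mCtx, and in mESC the nucleoplasm value of Fth1 lies at 0.

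Chromatin against cytoplasm is the contrast of the choice, so its values place the members and test nothing. Among all 18226 genes, ranked from the lowest, the mESC ratio put Gpx2 at 44, Marcksl1 at 70, Tmsb10 at 162, Fth1 at 445, Tmsb4x at 644, Ftl1 at 1039 and Tpt1 at 1192. In mNPC the 6 members without Gpx2 lay at ranks 51 to 366 and in mCtx at 43 to 398. The median over these 6 was -2.73 in mESC, -4.05 in mNPC and -4.40 in mCtx, against 0.37, 0.12 and 0.00 over all genes. Over the 2695 genes with a span of at most 3433 bases, members included, the medians were 0.00, -0.03 and -0.67, above those of the members in each cell type. Of all genes, 21.6%, 21.3% and 24.4% were called lower in chromatin in the 3 cell types, and 34.4%, 27.5% and 26.2% higher. By TPM, the log2 ratio of means was less far from 0 than the fitted count value for each of the 6 members other than Gpx2 in mNPC and mCtx, for example -3.99 for Tmsb10 and -3.23 for Tpt1 in mNPC.

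The ratio also differed in size between cell types. From mESC to mNPC the chromatin-to-cytoplasm log2 fold change shifted by -2.37 ± 0.20 (SE) for Tpt1, -2.03 ± 0.33 for Tmsb10, -1.63 ± 0.35 for Ftl1, -1.41 ± 0.63 for Tmsb4x and -1.23 ± 0.28 for Fth1. For Marcksl1 it shifted by -0.14 ± 0.34, and the median over all genes was -0.19. The shift of Ftl1 uses its own counts without the copies. Its mESC value of chromatin over cytoplasm was -2.31 by counts and 3.72 by TPM, so the shift depends on the measure. From mNPC to mCtx the shifts of Tpt1, Tmsb10, Ftl1, Tmsb4x and Fth1 were smaller in size, from -0.54 ± 0.62 for Tmsb4x to 0.69 ± 0.33 for Tmsb10, while that of Marcksl1 was larger than its first, at 0.63 ± 0.34. Gpx2 is left out because mNPC held 1 count. These shifts use the libraries of the choice and carry no test. For Tpt1 the parts of the first shift were -2.08 in chromatin and 0.29 in cytoplasm, and for Tmsb4x they were 1.88 and 3.29, so Tmsb4x was called higher in mNPC in both fractions.

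**Figure D5:**
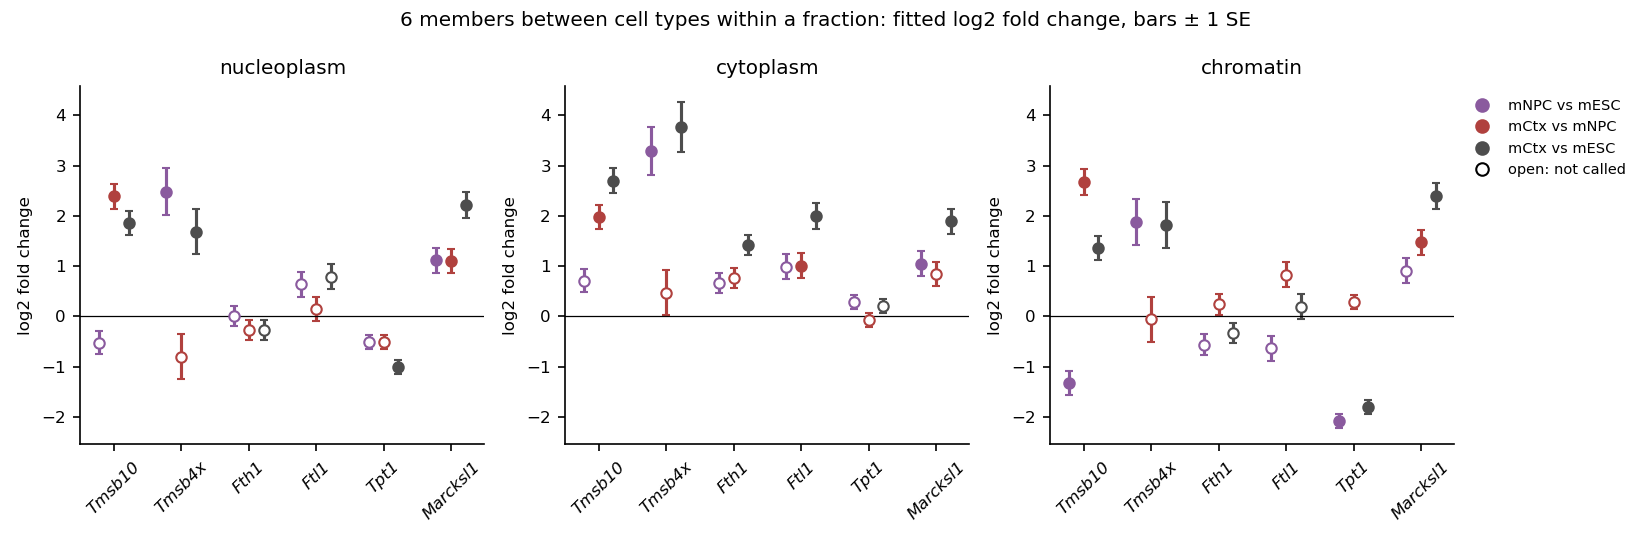
Fitted log2 fold change between cell types within each fraction for 6 members, with bars of 1 SE and filled points for calls; Gpx2 is not drawn because its groups hold few or no counts. Tmsb10 is above 0 for mCtx in all fractions, Marcksl1 is above 0 in all 9 comparisons, and the filled points of Tpt1 lie below 0, in chromatin and nucleoplasm.

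The pathways of the members were described by 5 lists of related genes, 81 in all, of which 79 were tested. For chromatin against cytoplasm, the actin turnover list of 17 genes had 11 lower in chromatin in mESC, 14 in mNPC and 14 in mCtx, and 0 higher, with medians of -1.51, -1.82 and -2.08. Of all genes, 21.6%, 21.3% and 24.4% were lower and 34.4%, 27.5% and 26.2% higher in these contrasts. Beta-actin, Actb, gave -3.48 ± 0.30, -2.59 ± 0.29 and -2.07 ± 0.29 in the 3 cell types. The 18 TOP mRNAs tested, translation factors among them, had 16, 18 and 14 lower and 0 higher, with medians of -2.03, -3.11 and -1.75. The elongation factor Eef1a1 gave -3.31 ± 0.17, -4.79 ± 0.18 and -2.43 ± 0.16. Like Tpt1, it was lowest in mNPC by this ratio. Of 23 genes of peroxide and thiol defence, 16, 18 and 16 were lower and 2, 0 and 1 higher, and all 3 relatives of Marcksl1 (Marcks, Gap43 and Basp1) were lower in each cell type.

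In the iron list, genes were called in both directions. Of its 18 tested genes 6 were lower and 6 higher in chromatin in mESC, 6 and 6 in mNPC, and 8 and 2 in mCtx, with medians of 0.59, -0.10 and -0.56. Beside 34.4% and 27.5% of all genes higher and 21.6% and 21.3% lower in mESC and mNPC, calls in both directions are not particular to these genes. Tfrc, the transferrin receptor, whose mRNA carries IREs in its 3′ end, was higher in chromatin than in cytoplasm in mESC (2.43 ± 0.31, adjusted p = 9.87e-08 by the edgeR quasi-likelihood F-test) and in mNPC (2.18 ± 0.31, adjusted p = 6.26e-07), and was not called in mCtx (0.08 ± 0.29, adjusted p = 0.837). The mean level of Tfrc was highest in nucleoplasm in each cell type. It was 798 CPM in mESC, 188 in mNPC and 506 in mCtx, against 315, 116 and 221 in chromatin. In cytoplasm Tfrc rose from mNPC to mCtx by 3.03 ± 0.32, adjusted p = 3.89e-09, beside 1.01 for Ftl1, which was called, and 0.76 for Fth1, which was not. Pcbp2, an iron chaperone and RNA-binding protein, was lower in chromatin than in cytoplasm in all 3 cell types, at -2.24 ± 0.16, -2.71 ± 0.16 and -1.41 ± 0.15.

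The genes most like each member were ranked by Pearson's correlation over the 9 group means of log2 CPM, among 12529 genes with at least 10.0 CPM in a group, as a description with no test. The 9 means share libraries and scaling and each fraction gives 3 of them. For Tmsb10 they were Abhd17c (r = 0.993), Spin1 (0.992) and Fkbp1a (0.987), and for Tmsb4x Cops9 (0.996), Mpc1-ps (0.995) and Fam210b (0.992). For Fth1 they were Cisd1 (0.988), Polr2i (0.985) and Mrps36 (0.985), and for Ftl1 Tma7 (0.991), Timm8b (0.988) and Glrx5 (0.987). For Tpt1 they were its identical copy Tpt1-ps3 (0.997), Mmachc (0.995) and Taf9 (0.989), for Marcksl1 Pard6a (0.991), Cotl1 (0.991) and Ap2s1 (0.990), and for Gpx2 Utp18 (0.988), Platr17 (0.987) and Bhlha15 (0.985). Among the members themselves the profiles of Fth1 and Ftl1 were the most alike (0.964), followed by Tmsb10 and Ftl1 (0.942), and those of Tmsb4x and Gpx2 were the least alike (-0.516).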

How the data were processed

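Of the series, 2 tables were used, reads per gene and TPM per gene, each with 27 columns matched to libraries by their headers. Nucleoplasm and cytoplasm columns of the gene table are counts, per the file headers. Columns headed Chr were deposited as whole numbers too and were treated as counts. The other table holds TPM, per the file headers, summed by the authors per gene. The genome was mm10, and the tools named per the submitters' processing notes are kallisto 0.43.0, STAR and featureCounts; counting options, strand setting and annotation release were not found in labels or headers. The gene lengths of the count table span introns, so intronic reads may enter the counts but not the TPM.

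Symbols and transcripts came from GENCODE M21. edgeR 4.0.16 in R 4.3.3 fitted all 27 libraries with a mean per group after filterByExpr and TMM; the SE of a log2 fold change is its size over the square root of F. Copies of Ftl1 and Tpt1 were chosen by symbol or annotated name, and their transcripts were then aligned with that of the member. No search for further copies was made. Intervals are exact and cover counting error only. No replicate pair was identical: over 27 pairs, the mean chi-square per gene was at least 3.19. The labels call the replicates biological. Libraries with one number deviated together across mESC fractions (correlations 0.31 to 0.72, all 9 pairs above 0.1). Alternatives included DESeq2 1.42.0 and limma 3.58.1 on log2(TPM + 1). The members, lists and tests were chosen with earlier results of these data known. Named genes are all members, the 2 highest tested genes of each list by mean CPM and the 3 genes most like each member. The fitting code was also run on counts simulated from its own fitted spread, which checks the code and not the results above.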

Additional observations from a re-analysis of the deposited data

Results flagged for a closer look

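In 4 cases the libraries of a member were all on one side in one fraction and all on the other side in another fraction of the same pair of cell types. The difference between the fractions was not tested. The share of all genes with such a pattern was not computed, so the 4 cases are a description and are not called unusual. Tmsb10 in mNPC against mESC gave a log2 fold change of -1.32 in chromatin and 0.71 in cytoplasm. Fth1 in the same pair gave -0.56 in chromatin and 0.67 in cytoplasm. Tmsb4x in mCtx against mNPC gave -0.80 in nucleoplasm and 0.47 in cytoplasm, neither of them called. Tpt1 in mCtx against mNPC gave 0.28 in chromatin and -0.51 in nucleoplasm, neither of them called. Of these 8 values only the chromatin value of Tmsb10 was called, in a fraction whose libraries entered the choice of the members.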

How the results depend on the processing

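Over the 63 member comparisons of cell types, 1126 alternative values kept direction and call, 40 gained a call, 45 lost one and 25 turned; over the 60 fraction values, 891 moved by less than the spread, 193 by more and 14 turned. The number of members called in cytoplasm between mCtx and mNPC, 3 with Gpx2 included, fell to 1 on log2(TPM + 0.1), on log2(TPM + 1), on summed TPM and in a fit of only the libraries compared, and ran from 1 to 3 when a library was left out, with 1 without mNPC cytoplasm library 2. In the main fit 4448 of 18226 genes were higher and 3645 lower in this comparison. On log2(TPM + 0.1) these were 5067 and 3869 of 28745, and on log2(TPM + 1) 3340 and 3038. On summed TPM they were 3340 and 3037 of 28740, and with only the libraries compared 3811 and 3380 of 14820. On the TPM scales a smaller share of all genes was thus called too. With no minimum fold, mCtx against mNPC in cytoplasm had 5 members called, beside 6144 of 18226 genes higher and 5674 lower. For mNPC against mESC the counts were 7 in chromatin, 6 in cytoplasm and 6 in nucleoplasm in place of 4, 3 and 3. Of all genes, 6541 were higher and 7594 lower there in chromatin, 6898 and 6981 in cytoplasm and 6071 and 7844 in nucleoplasm. These member counts include Gpx2 and do not set the members apart from all genes. With the minimum fold, left-out libraries gave 4 to 5, 3 to 4 and 3 to 4 for mNPC against mESC in the same order of fractions. In nucleoplasm they gave 4 to 5 for mCtx against mESC and 2 to 3 for mCtx against mNPC.

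Values of Ftl1 turned most. On log2(TPM + 0.1) and log2(TPM + 1), Ftl1 in mESC gave 3.71 and 3.57 for chromatin against cytoplasm, 1.74 and 1.71 for chromatin against nucleoplasm and 1.97 and 1.86 for nucleoplasm against cytoplasm, and 1.83 and 1.82 for mNPC against mESC in chromatin. Summed TPM of Ftl1 and its copies turned mNPC against mESC to -0.87 in cytoplasm and -1.58 in nucleoplasm, and mCtx against mESC to -1.11 in nucleoplasm and -1.39 in chromatin. In that last comparison summed counts gave -0.53 and library totals -0.0675. Ftl1 in nucleoplasm of mCtx against mNPC turned to -0.0368 with a minimum of 1 CPM and to -0.0303 with summed counts, and ran from -0.21 to 0.14 with a library left out. Summing the copies also moved values of 4 members for which no copy was summed, by up to 0.282, through the scaling. Whether these members have copies of their own was not searched.

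Fth1 in mESC, nucleoplasm against cytoplasm, turned to -0.0194 by DESeq2 and with RLE size factors and to -0.00873 with no filter, and ran from -0.0725 to 0.13 with a library left out. Fth1 in nucleoplasm of mNPC against mESC turned to -0.35 with library totals and to -0.37 and -0.36 on the 2 TPM scales and -0.36 on summed TPM, and of mCtx against mNPC to 0.025, 0.025 and 0.025. Tmsb4x in chromatin of mCtx against mNPC turned to 0.0105 with a minimum of 1 CPM and to 0.0201 with summed copies, and ran from -0.17 to 0.15 with a library left out. Tmsb4x in mESC, nucleoplasm against cytoplasm, ran from -0.90 to 0.21 with a single library left out, which breaks a same-numbered pair, and was -0.35 without all mESC libraries numbered 1. Tpt1 in cytoplasm of mCtx against mNPC turned to 0.094 on both TPM scales and ran from -0.18 to 0.00248. Gpx2 in mCtx, nucleoplasm against cytoplasm, ran from -0.20 to 0.52. None of these had been called. The causes were not tested.

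Library totals alone moved the median of all genes, for example from 0.37 to 0.88 for chromatin against cytoplasm in mESC and from -0.25 to -0.61 for mNPC against mESC in nucleoplasm, so directions near 0 rest on the scaling. With the replicate number as a block, Ftl1 in cytoplasm of mNPC against mESC went from 0.99 to 1.04 (adjusted p = 0.000131 by edgeR) and so was called; the block changed no other call of a member. Across cell types the numbers do not pair the libraries (correlations -0.12 to 0.07, 0 of 27 above 0.1, 7 of 27 best with their own number). Across fractions, 18 of 27 pairs were above 0.1, from -0.12 to 0.25 in mNPC and 0.03 to 0.14 in mCtx. With 3 libraries per group, differences near the fold threshold cannot be settled.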

Other observations

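The lists of related genes, described between fractions above, were also compared between cell types with edgeR's quasi-likelihood F-test, where 63.0% of all genes were called between mCtx and mESC in nucleoplasm (28.9% higher and 34.1% lower in mCtx) and 67.9% in cytoplasm (35.7% and 32.2%). Called in either direction were 11 of 17 actin genes, 9 of 18 TOP mRNAs and 14 of 23 peroxide defence genes in nucleoplasm and 13 of 18 TOP mRNAs in cytoplasm. These counts do not set the lists apart from all genes, and the counts by direction that follow are descriptions. In nucleoplasm of mCtx against mESC, 2 of 17 actin genes were lower and 9 higher, among the latter Actb (1.66 ± 0.28, adjusted p = 6.77e-06), as Tmsb10 and Tmsb4x were. All 3 relatives of Marcksl1 were higher there, with Gap43, a growth cone protein, at 8.59 ± 0.30 and Marcks at 3.49 ± 0.18. From mNPC to mCtx, however, Marcks fell in nucleoplasm (-1.29 ± 0.16, adjusted p = 8.96e-08), where Marcksl1 rose (1.10 ± 0.24). Of the 18 TOP mRNAs, 8 were lower and 1 higher in mCtx nucleoplasm than in mESC, and in cytoplasm 12 were lower and 1 higher, where Tpt1 gave 0.21 ± 0.14 and was not called. Eef1a1 and Eef2 were lower in mCtx cytoplasm, at -1.15 ± 0.15 and -1.57 ± 0.15. Of the 23 peroxide defence genes, 11 were lower and 3 higher in mCtx nucleoplasm than in mESC, with the peroxiredoxin Prdx1 at -2.87 ± 0.20 and Prdx2 at 1.45 ± 0.19, while Gpx2 was 60.7-fold lower in mCtx.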
